A study of Rattus norvegicus with 8 samples.

Results

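The clock genes Arntl, Clock, Per1, Per2, Per3, Cry1, Cry2, Dbp, Nr1d1 and Nr1d2 were taken by symbol as core and output genes of the circadian loop. Of these 10 genes, 9 had a probe, 1 probe each, among the 22523 probes and 21557 gene symbols of the array, and no probe carried the symbol Nr1d2. Levels were measured in secretory-stage and maturation-stage enamel organs of 4 male Wistar (Wistar Hannover) rats aged 4 weeks, for which the labels and methods name no genetic change or treatment. The enamel organ is the layer of cells on the enamel surface of the growing incisor, and it was dissected from lyophilized mandibles after removal of the overlying bone, so that each sample was a mixed layer containing the ameloblasts that form enamel. Each rat gave 1 sample of either stage, and each sample had its own array, so that there were 4 arrays per stage. The hour of death is not given in the sources used here.

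The circadian clock is a feedback loop of transcription that runs in most cells of the body. The proteins of Arntl (now named Bmal1) and Clock bind DNA together at E-box sequences and switch on the Per and Cry genes, whose proteins return to the nucleus and repress them. A further loop is formed by Nr1d1 and Nr1d2, which encode the REV-ERB receptors that repress Arntl, and by the ROR receptors, which activate it through the same DNA element. Dbp encodes an output factor that acts at D-box sequences. In this loop the mRNA of Arntl peaks at a different time of day from those of Per2, Nr1d1 and Dbp. Peripheral tissues, teeth included, hold such clocks, and enamel is laid down in daily increments.

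The raw signals of the arrays summed to 11881700 to 12046800 in the secretory stage and to 13355100 to 16122700 in the maturation stage, each probe was read by 41 to 42 beads at the median, and all 8 arrays correlated more with the arrays of their own stage than with those of the other. The ameloblast markers followed the labels in sign, though not all were called. Enam and Mmp20, which encode an enamel matrix protein and the protease of the secretory stage, had log2 fold changes (maturation minus secretory) of -4.98 and -4.03, and Klk4, the protease of the maturation stage, was at least 118.2-fold higher in maturation. The Enam signal was uneven within the maturation stage, at 9.08 and 8.22 in rats 1 and 4 against 5.17 and 5.53 in rats 2 and 3. The other secretory markers, Amelx (-0.53, limma adjusted p = 0.0555) and Ambn (-0.36, adjusted p = 0.0353), were not called, and the stages of Ambn overlapped. Of 6 measured macrophage and leukocyte markers, 4 were called higher in maturation (Cd68, Cd14, Lcp1 and Ptprc). Aif1, at 0.85 (limma adjusted p = 3.92e-05; 1.797-fold), fell just short of the 1.8-fold threshold, and Itgam was detected on 1 secretory and 2 maturation arrays. The summed normalized signal of all 6 ran from 3305 to 3997 in the secretory stage and from 8860 to 11427 in maturation. The endothelial marker Cdh5 and the muscle marker Myh4 were detected on no array. None of the measured blood (2), endothelial (2), fibroblast (5) or skeletal muscle (5) markers was called with the 1.8-fold threshold. By the limma adjusted p alone, 2 fibroblast markers were higher in maturation, Lum (0.54, adjusted p = 8.38e-04) and Col1a2 (0.21, adjusted p = 0.0409), against 12.8% of all probes. Of the blood markers, Alas2 was at -1.07 (adjusted p = 0.0578) without overlap of the stages and Hbb at 0.15 (adjusted p = 0.650). The part of these other cells in the values of the clock genes was not tested. In such bulk samples, fewer cells of a type and less RNA per cell cannot be told apart.

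The regions just upstream of the transcription start were searched for motifs of the loop, and they are shown here for the 3 genes with the smallest adjusted p and for the other repressors of the loop that were measured, Bhlhe40 and Bhlhe41. Each sequence is the 250 bases before a RefSeq transcription start in the GRCr8 assembly, written 5′ to 3′ on the strand of the gene, with the motif matches in capitals. The windows are chr1:176766078-176766327 on the plus strand for Arntl, chr9:99496994-99497243 on the minus strand for Per2, chr10:84231813-84232062 and chr10:84229455-84229704 on the minus strand for the 2 starts of Nr1d1, chr4:143174200-143174449 on the plus strand for Bhlhe40 and chr4:180569356-180569605 on the minus strand for Bhlhe41.
Arntl: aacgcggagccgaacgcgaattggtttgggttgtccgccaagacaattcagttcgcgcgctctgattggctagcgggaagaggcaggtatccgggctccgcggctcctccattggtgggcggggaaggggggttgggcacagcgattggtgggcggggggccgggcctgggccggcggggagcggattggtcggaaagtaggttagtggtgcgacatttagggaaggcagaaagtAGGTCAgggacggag
Per2: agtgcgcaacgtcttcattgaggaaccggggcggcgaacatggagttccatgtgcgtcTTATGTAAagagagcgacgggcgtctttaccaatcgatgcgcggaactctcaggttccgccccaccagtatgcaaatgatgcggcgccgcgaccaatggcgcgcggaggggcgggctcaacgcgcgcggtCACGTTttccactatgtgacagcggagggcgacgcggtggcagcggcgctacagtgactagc
Nr1d1, start 1: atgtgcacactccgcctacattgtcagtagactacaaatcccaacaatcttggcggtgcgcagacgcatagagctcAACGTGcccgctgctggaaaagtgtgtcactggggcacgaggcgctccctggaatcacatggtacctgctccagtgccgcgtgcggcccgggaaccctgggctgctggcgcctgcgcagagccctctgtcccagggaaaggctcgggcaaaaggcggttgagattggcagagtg
Nr1d1, start 2: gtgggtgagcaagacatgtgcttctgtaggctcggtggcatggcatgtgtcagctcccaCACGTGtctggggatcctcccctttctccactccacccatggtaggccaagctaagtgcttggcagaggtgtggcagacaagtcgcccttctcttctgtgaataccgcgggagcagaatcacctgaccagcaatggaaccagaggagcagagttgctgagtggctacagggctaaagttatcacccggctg
Bhlhe40: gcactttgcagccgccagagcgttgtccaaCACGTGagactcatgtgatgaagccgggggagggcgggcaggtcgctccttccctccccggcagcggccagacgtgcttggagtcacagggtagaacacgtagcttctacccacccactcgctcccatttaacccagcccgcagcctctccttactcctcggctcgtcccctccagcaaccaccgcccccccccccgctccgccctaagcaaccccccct
Bhlhe41: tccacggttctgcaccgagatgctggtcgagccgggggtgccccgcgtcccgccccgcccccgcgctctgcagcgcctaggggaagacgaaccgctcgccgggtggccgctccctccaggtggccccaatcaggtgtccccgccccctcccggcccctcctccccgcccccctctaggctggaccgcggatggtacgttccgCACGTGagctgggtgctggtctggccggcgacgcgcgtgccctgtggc

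Both strands were searched for the E-box CACGTG, the related CACGTT, which reads AACGTG on the other strand, the D-box TTATGTAA, which reads TTACATAA, the core AGGTCA, which reads TGACCT, of the element that ROR and REV-ERB receptors share, and the cAMP response element TGACGTCA. No stretch of bases can match both E-box forms. Of the 33469 windows in the RefSeq table, 5.59% held the E-box, 4.07% its related form, 0.828% the D-box, 14.1% the receptor core and 1.59% the cAMP response element. The Arntl window held the receptor core AGGTCA at bases 15 to 10 before the start. The Per2 window held a D-box at bases 192 to 185 and CACGTT at bases 62 to 57. The windows of Nr1d1 held AACGTG at bases 174 to 169 before start 1 and CACGTG at bases 191 to 186 before start 2. The CACGTG of Bhlhe40 lay at bases 220 to 215 and that of Bhlhe41 at bases 48 to 43. Among the other clock genes, Cry2 held AACGTG at bases 212 to 207 and Nr1d2 held AGGTCA at bases 187 to 182. In all, 9 of the clock genes had 11 windows in the table, of which 5 (those of Clock, Per1, Per3 and Dbp) held none of these motifs. Cry1 was not listed. A match is a description of the letters and not a site, and a window with no match says nothing of the rest of the gene.

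Between the stages, 4 of the 9 measured clock genes differed at an adjusted p below 0.05: Nr1d1, Per2 and Cry2 were higher in maturation, and Arntl was lower. The sizes were modest, with log2 fold changes from -0.48 to 0.66, and none of the 9 reached the 1.8-fold change that the study required together with its false discovery rate. Stages were compared with limma on normalized log2 signals, with Benjamini-Hochberg adjustment over all 22523 probes. By both criteria 0 of 9 clock genes were called, against 7.75% of all probes (4.6% higher and 3.15% lower in maturation) and 15.1% of the 9156 probes detected on all 8 arrays. By the adjusted p alone, 3 of 9 were higher, against 12.8% of all probes, and 1 of 9 was lower, against 14%. At an unadjusted p below 0.05 the count was 5 of 9, which added Per1, against 34.2% of all probes. At an adjusted p below 0.05 the methods' t-test gave 3 of 9 (Arntl, Per2 and Nr1d1), against 23.2% of all probes, and the fit with the rat as a block gave 6 of 9, against 27.6%. The values of the stages did not overlap for 3 clock genes that were higher (13.1% of all probes) and 1 that was lower (14.6%). The median log2 fold change of the 9 genes was -0.04, against -0.01 over all probes.

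**Figure D1:**
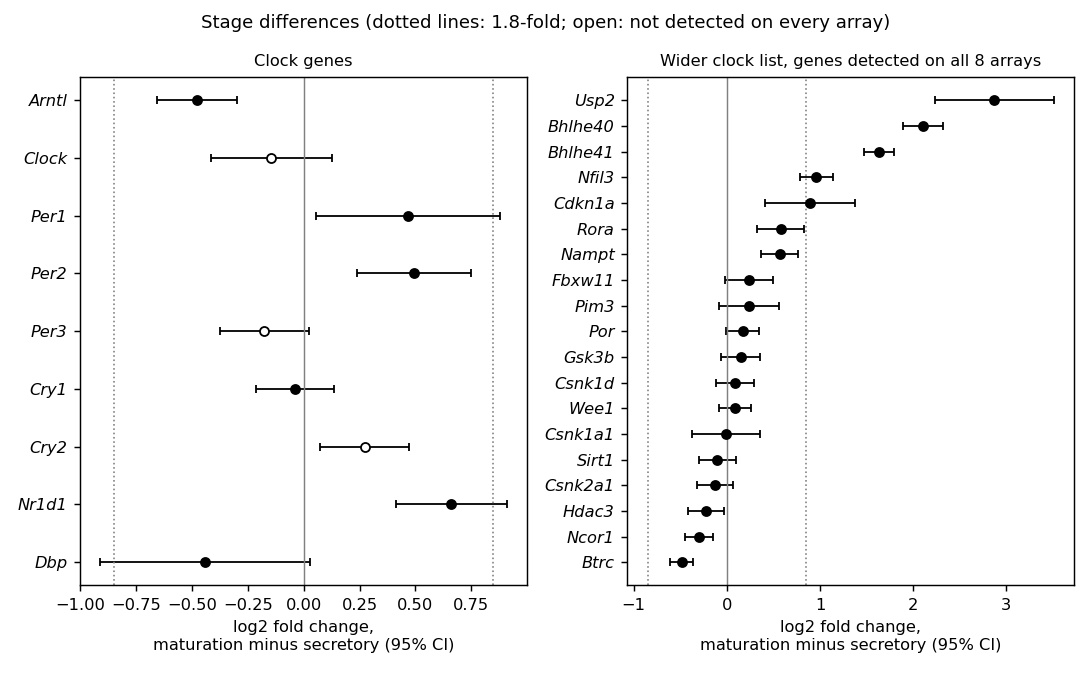
Log2 fold change (maturation minus secretory, in normalized log2 units) of the 9 measured clock genes (left) and of genes of the wider clock list detected on all 8 arrays (right), as points with the 95% confidence interval of the unpaired limma fit as bars, open points for genes not detected on every array and dotted lines at 1.8-fold. The intervals of Arntl (-0.66 to -0.30) and Nr1d1 (0.41 to 0.91) lie on opposite sides of 0 and no clock gene on the left reaches 1.8-fold, whereas Usp2 on the right is at 2.87.

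The activator arm was represented by Arntl and Clock. Arntl (chromosome 1) had normalized log2 signals of 7.14, 7.08, 7.37 and 7.26 in the secretory samples of rats 1 to 4 and 6.82, 6.63, 6.79 and 6.69 in their maturation samples. Every maturation value lay below every secretory value. The means were 7.21 ± 0.129 and 6.73 ± 0.0906 (SD, n = 4 each), a difference of -0.48 (SE 0.0791; limma adjusted p = 0.00132), or 1.39-fold lower in maturation, and the exact permutation test gave p = 0.0286, the smallest that 4 against 4 allows. Within the rats the differences were -0.31, -0.45, -0.58 and -0.57. Before normalization the stages overlapped, with raw signals of 196.8 to 227.9 in the secretory stage and 206.8 to 247.0 in maturation, on arrays whose totals were higher in maturation. When the arrays were scaled to a common median instead of quantile-normalized, the difference of Arntl was -0.16 (adjusted p = 0.180), on a scale that also moved the median of the probes detected on all 8 arrays from -0.07 to 0.20. Without background correction it was -0.27 (adjusted p = 9.72e-04).

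Clock, which encodes the DNA-binding partner of the Arntl protein, was near the background. It was detected on 1 secretory array, that of rat 2, and on no maturation array. Its normalized signals were 4.71, 5.28, 4.77 and 4.93 in the secretory stage and 4.68, 4.87, 4.71 and 4.84 in maturation, and the stages overlapped. The fitted difference was -0.15 (SE 0.120; adjusted p = 0.483), with a 95% confidence interval from -0.42 to 0.12, and no fold is given because the probe was not detected in the maturation stage. Without the secretory array of rat 2 the difference was -0.026.

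Among the repressors of the first loop, Per2 was higher in maturation. Its normalized signals were 9.37, 9.65, 9.68 and 9.24 in the secretory stage and 9.80, 10.13, 9.98 and 10.01 in maturation, with no overlap. The means were 9.48 ± 0.216 and 9.98 ± 0.136 (SD, n = 4 each), a difference of 0.49 (SE 0.113; limma adjusted p = 0.00884; 1.41-fold), and it was positive in all 4 rats, from 0.29 to 0.77. Without rat 4, in which it was largest, the difference was 0.40 (adjusted p = 0.0536), and with median scaling of all arrays it was 0.82 (adjusted p = 9.55e-04).

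Per1 had the same sign in every rat but a wider spread. Its normalized signals were 7.97, 8.63, 8.15 and 8.03 in the secretory samples and 8.22, 8.96, 8.78 and 8.69 in the maturation samples of rats 1 to 4. The stages overlapped, because the secretory sample of rat 2 lay above the maturation sample of rat 1. The means were 8.20 ± 0.300 and 8.66 ± 0.318, a difference of 0.47 (SE 0.182; limma adjusted p = 0.0977; 95% confidence interval 0.05 to 0.88). With the rat as a block the same difference had an SE of 0.0911 and an adjusted p of 0.00909, and the differences within the rats were 0.24, 0.33, 0.63 and 0.66. Of the 8 fits without 1 array it passed in 2, and of the 4 fits without 1 rat in 2, with adjusted p up to 0.235 and 0.324. It passed when the maturation array of rat 1 (0.62, adjusted p = 0.0192) or the secretory array of rat 2 (0.61, adjusted p = 0.0226) was left out, and when rat 1 (0.54, adjusted p = 0.0461) or rat 2 (0.51, adjusted p = 0.0484) was. The raw Per1 signal of the secretory sample of rat 2 was 421.7, with a standard error over beads of 14.4, against 287.2, 326.9 and 290.7 with standard errors of 8.2 to 11.8 in the other secretory samples.

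Per3 was low in both stages, and was detected on 4 secretory and 2 maturation arrays. Its normalized signals ran from 5.04 to 5.13 in the secretory stage and from 4.71 (rat 1) to 5.12 (rat 2) in maturation, where the value of rat 2 lay within the secretory range. The difference was -0.18 (SE 0.0886; adjusted p = 0.201; 95% confidence interval -0.38 to 0.02). It was negative in 3 of 4 rats, and was -0.10 without the maturation array of rat 1.

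The cryptochromes, which bind the period proteins and repress the activator pair, gave small differences. Cry1 was detected on all 8 arrays, at 8.97, 9.03, 9.26 and 9.09 in the secretory stage and 9.03, 9.17, 9.02 and 8.97 in maturation. The stages overlapped fully and 2 of 4 rats went either way. Its difference was -0.04 (SE 0.0776; adjusted p = 0.814), with a 95% confidence interval of -0.21 to 0.14. This interval leaves no room for a 1.8-fold change on this scale, but median scaling, which raised the difference of each of the 6 clock genes detected on all 8 arrays, gave 0.32 (adjusted p = 0.0214), and cyclic loess gave 0.05.

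Cry2 was detected on all 4 maturation arrays and on 2 of the 4 secretory arrays, so that the size of its change is set against values at the background. Its signals were 5.11, 4.90, 5.08 and 4.74 in the secretory stage and 5.34, 5.19, 5.18 and 5.21 in maturation, without overlap. The difference of 0.27 (SE 0.0891; limma adjusted p = 0.0493) was positive in all 4 rats and lay just inside the threshold. The methods' t-test gave an adjusted p of 0.0972, and of the 8 fits that each left out 1 array, 2 kept it below 0.05, with adjusted p from 0.0290 to 0.121. None of the 4 fits that each left out 1 rat did, with adjusted p from 0.0676 to 0.164.

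**Figure D2:**
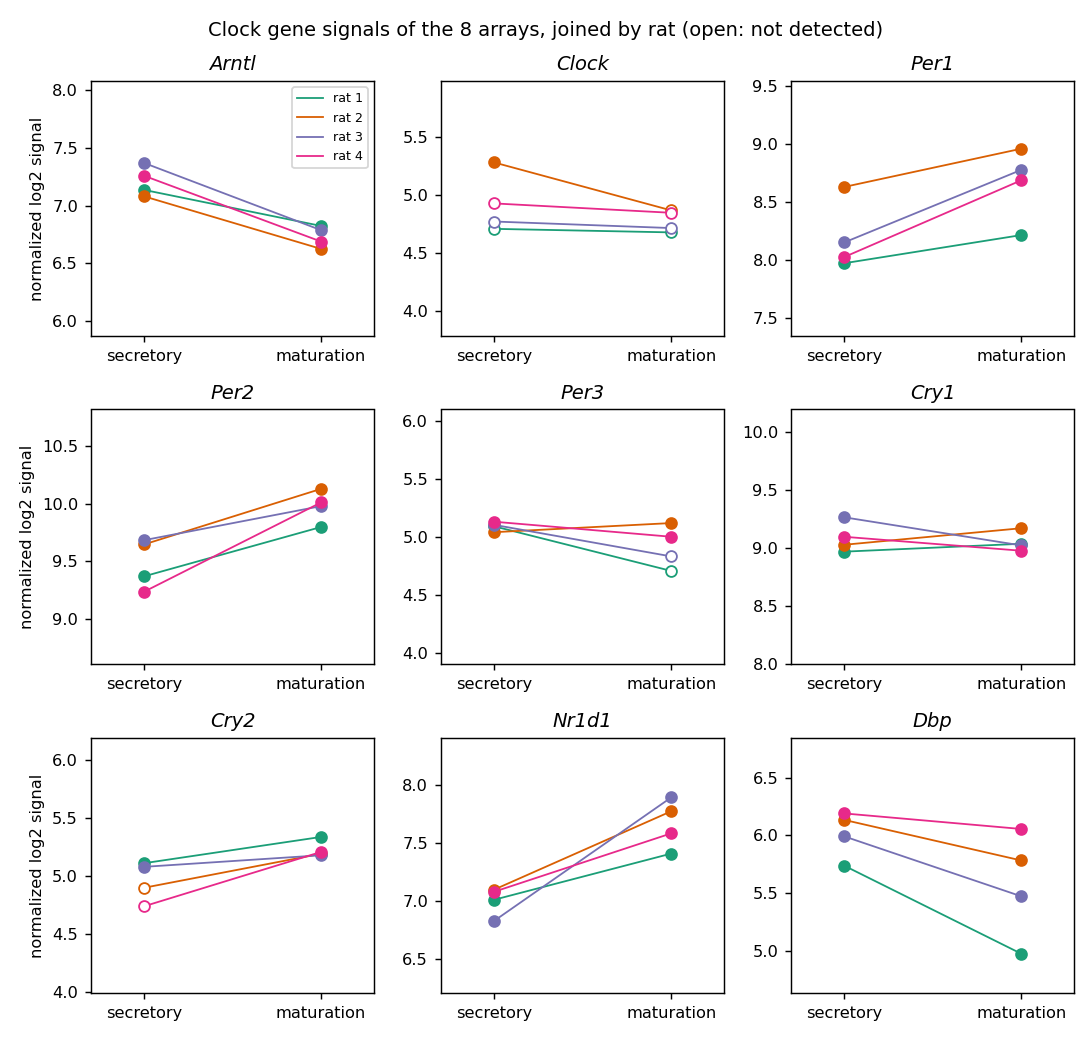
Normalized log2 signal of each measured clock gene on each array, with secretory and maturation samples of the same rat joined by a line; open symbols mark a detection p of 0.05 or more. Nr1d1, Per2 and Cry2 rise and Arntl falls in each of the 4 rats with no overlap of the stages, whereas the lines of Cry1 cross.

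Nr1d1, the repressor of Arntl in the further loop, had the largest difference of the 9 genes. Its normalized signals were 7.01, 7.10, 6.83 and 7.08 in the secretory stage and 7.41, 7.78, 7.90 and 7.59 in maturation. All maturation values lay above all secretory values, and the 2 lowest maturation values were those of rats 1 and 4, the samples with the most Enam signal; the relation was not tested. The means were 7.01 ± 0.123 and 7.67 ± 0.213 (SD, n = 4 each), a difference of 0.66 (SE 0.110; limma adjusted p = 0.00137), or 1.58-fold higher in maturation. Within the rats it was 0.40, 0.68, 1.07 and 0.50. The raw signals did not overlap either, at 184.3 to 205.2 in the secretory stage and 321.1 to 357.5 in maturation. With median scaling the difference was 0.99 (adjusted p = 2.90e-05), and Nr1d1 was then the 1 clock gene past both thresholds. Without background correction it was 0.42 (adjusted p = 6.37e-04).

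Dbp, the D-box output factor, had values of 5.74, 6.13, 5.99 and 6.19 in the secretory stage and 4.98, 5.78, 5.48 and 6.06 in maturation, and was detected on all 8 arrays. It was lower in the maturation sample of each rat, by -0.76, -0.35, -0.52 and -0.13 on the log2 scale, but the stages overlapped. The difference of the means, -0.44 (SE 0.208; limma adjusted p = 0.174), did not pass, and with the rat as a block its SE was 0.106 and its adjusted p 0.0217. Without the maturation array of rat 4 it was -0.60 (adjusted p = 0.0495), and without that of rat 1 it was -0.24. Without background correction it was -0.16 and with median scaling -0.25.

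Because the choice of normalization between arrays shifted the well-detected clock genes together, the difference between Nr1d1 and Arntl was also taken within each array, where a common scale factor cancels. The offset between these probes has no meaning in itself, and its change between the stages is given as a description without a test. Nr1d1 and Arntl had the largest differences of the clock genes in either direction. The stages of Nr1d1, Per2 and Arntl did not overlap for each gene alone, so the separate ranges of the pairs below follow from values already given and are no further support. Nr1d1 minus Arntl ran from -0.54 to 0.02 in the secretory stage and from 0.59 to 1.15 in maturation, a change of 1.14. The change was 1.15 with median scaling, 1.13 with cyclic loess and 0.70 without background correction. Per2 minus Arntl ran from 1.98 to 2.57 in the secretory stage and from 2.97 to 3.50 in maturation, a change of 0.97.

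**Figure D3:**
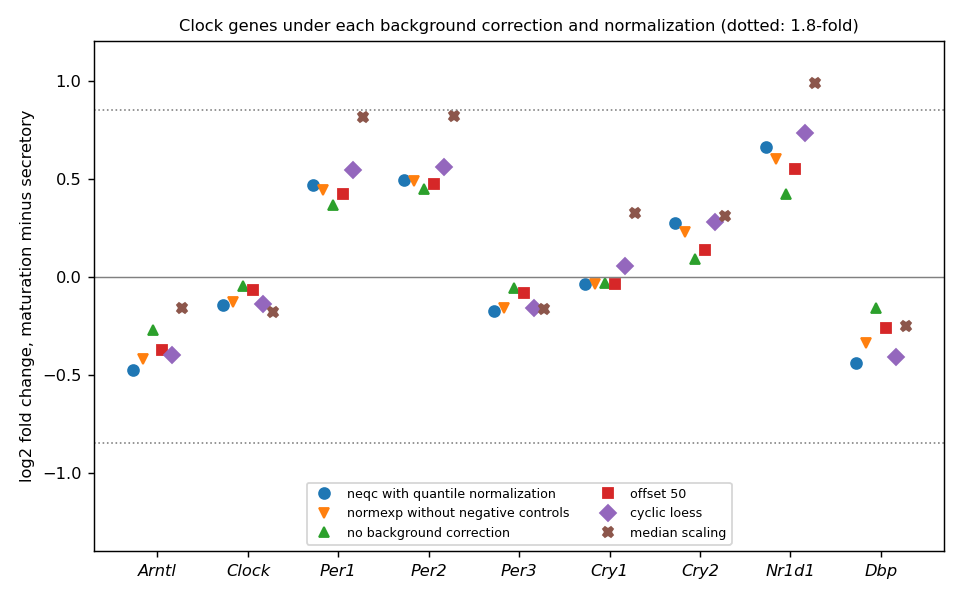
Log2 fold change (maturation minus secretory) of each measured clock gene under the normalizations tried, in log2 units on each normalization's own scale, with dotted lines at a 1.8-fold change. Nr1d1 and Per2 stay above 0 and Arntl below 0 in every one, while Cry1 lies on either side, from -0.04 to 0.32.

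Both samples of a rat shared the animal and its hour of death, so a gene that differed between rats alike in both stages was looked for with an F test on the rats in a limma fit with stage and rat. At an adjusted p below 0.05, 0 of 9 clock genes and 9 of 22523 probes (0.04%) were called. At an unadjusted p below 0.05 there were 2 of 9, Per1 (F = 10.2, adjusted p = 0.486) and Dbp (F = 9.70, adjusted p = 0.494), against 8.47% of all probes. In the mean of both stages Per1 was 8.10, 8.80, 8.47 and 8.36 in rats 1 to 4, and Dbp was 5.36, 5.96, 5.73 and 6.12. Rat 1 was lowest for both genes in either stage, rat 2 was highest for Per1 and rat 4 for Dbp. The SD of the rat means was 0.291 for Per1 and 0.331 for Dbp, at the 97.2nd and 98.2nd percentile of the probes detected on all 8 arrays, whose median was 0.104. For Arntl it was 0.0921 and for Nr1d1 0.0940. Replicate rats have no order, and neither Per1 nor Dbp passed the adjusted threshold in this test.

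**Figure D4:**
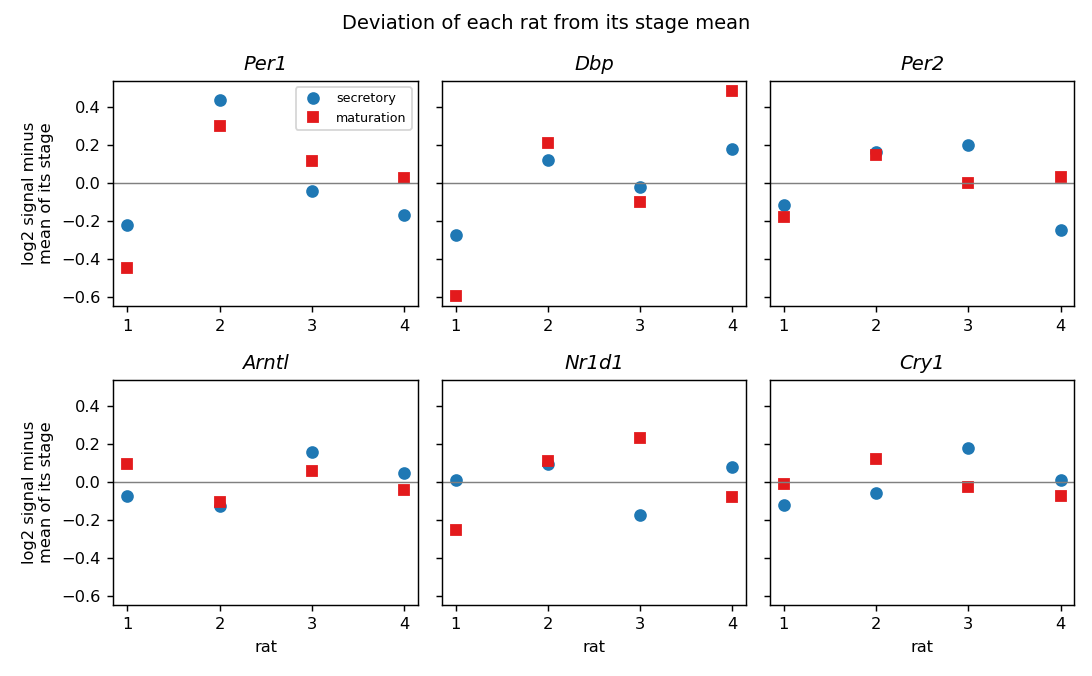
Deviation of each sample from the mean of its stage (normalized log2 units) for Per1, Dbp, Per2, Arntl, Nr1d1 and Cry1 in the 4 rats, with secretory and maturation samples as separate symbols. For Per1 and Dbp the secretory and maturation samples of rat 1 both lie lowest, and the rat means of these genes have SDs of 0.291 and 0.331, against 0.0921 for Arntl.

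The other genes of the pathway were taken as a list of 33 (a paralog of Clock and Arntl, further repressors, ROR receptors, D-box factors, kinases, ubiquitin ligase subunits, corepressors, and genes with daily rhythms in many tissues), of which 27 had a probe and 23 were detected on at least 1 array. Of these, 5 were called higher in maturation and 0 lower, against 4.6% and 3.15% of all probes, and by the adjusted p alone 8 were higher and 2 lower, against 12.8% and 14%. Among probes detected on all 8 arrays, 8.73% were called higher. The median log2 fold change of the 27 was 0.15. Arntl2, Ciart, Csnk1e, Fbxl21, Nono and Alas1 had no probe.

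Both measured repressors were called. Bhlhe40 (Bhlhb2 on the array), an E-box repressor also known as DEC1, had normalized signals of 7.75, 7.90, 7.71 and 7.92 in the secretory stage and 9.67, 10.08, 9.94 and 10.01 in maturation, a difference of 2.10 (SE 0.0964; limma adjusted p = 3.88e-07) or 4.30-fold. Bhlhe41 (Bhlhb3, DEC2) was at 9.66, 9.56, 9.38 and 9.61 against 11.12, 11.21, 11.17 and 11.26, a difference of 1.64 (SE 0.0717; adjusted p = 3.00e-07) or 3.11-fold. Neither gene had a maturation value near its secretory range. Of the 5 called genes of the list, these were the 2 with CACGTG in their windows, whereas the window of Usp2 held AGGTCA alone and those of Nfil3 and Cdkn1a held none of the motifs. The windows of the genes of the list that were not called were not examined, so whether the motif goes with the rise was not tested.

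Usp2, a deubiquitinase with a daily rhythm in many tissues, rose most in the list. Its signals were 5.68, 6.19, 6.56 and 6.68 in the secretory stage and 8.38, 9.52, 9.23 and 9.47 in maturation, a difference of 2.87 (SE 0.284; limma adjusted p = 4.99e-05). Rat 1 was lowest in both stages. Without background correction the difference was 1.95. Nfil3, the D-box repressor that opposes Dbp, rose by 0.96 (SE 0.0777; adjusted p = 1.37e-05), with values of 8.68 to 8.76 in the secretory stage and 9.52 to 9.88 in maturation. Without background correction its difference was 0.83, under the 1.8-fold mark. Cdkn1a, the cell cycle inhibitor p21, rose by 0.89 (SE 0.213; adjusted p = 0.0110), and was under the 1.8-fold mark without the secretory array of rat 2 (0.73), without the maturation array of rat 4 (0.74), with an offset of 50 (0.60), with normexp (0.72) and without background correction (0.39). Its adjusted p was 0.0563 with the methods' t-test and 0.0557 without rat 2 (0.70).

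The activating receptor Rora was higher in maturation at 0.58 (SE 0.113; limma adjusted p = 0.00355), under the 1.8-fold mark, with 6.26 to 6.72 in the secretory stage and 6.95 to 7.14 in maturation. With median scaling it was at 0.87 (adjusted p = 3.23e-04), past that mark, and without background correction at 0.31. Rorb was detected on no array. Of the D-box factors related to Dbp, Tef was detected on 1 secretory and 2 maturation arrays (0.06, adjusted p = 0.728) and Hlf on none. Npas2, the paralog of Clock, was detected on 1 array of each stage, with a difference of -0.26 (SE 0.198; adjusted p = 0.440) that ran from -0.41 without the secretory array of rat 4 to -0.057 without that of rat 1. Further genes past the adjusted p alone, named after their values were seen, were Nampt, which encodes an enzyme of NAD synthesis (0.57, adjusted p = 9.57e-04) and was higher, and the ubiquitin ligase subunit Btrc (-0.48, adjusted p = 9.95e-05) and the corepressor Ncor1 (-0.30, adjusted p = 0.00864), both lower. With median scaling Nampt was at 0.91, past the 1.8-fold mark, and 7 genes of the list were called in all. On that scale Btrc was at -0.13 (adjusted p = 0.113) and Ncor1 turned sign (0.052, adjusted p = 0.583), and without rat 4 the adjusted p of Ncor1 was 0.0603.

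Glucocorticoids and immediate early signals act on several clock genes, Per1 included, and their targets were measured on the same arrays. Of 7 genes of the glucocorticoid list, 3 were called higher and 1 lower in maturation, against 4.6% and 3.15% of all probes (8.73% higher among those detected on all 8 arrays). The median log2 fold change was 0.18, and the receptor Nr3c1 was not detected. The largest called change was that of Fkbp5, a glucocorticoid-induced cochaperone of the receptor, at 12.19 ± 0.123 in the secretory stage and 9.19 ± 0.190 in maturation (SD, n = 4 each; log2 fold change -3.01, SE 0.102; limma adjusted p = 7.49e-08). The list thus held called genes in both directions. Of 9 immediate early genes, 6 were called higher and 0 lower, against the same shares of all probes, with a median of 1.01. The largest fitted change among those called was that of Junb, a subunit of the AP-1 factor, at 7.82 to 8.26 in the secretory stage and 10.49 to 10.67 in maturation (2.51, SE 0.0990; adjusted p = 1.64e-07). Fos, named after its values were seen, lay under detection in all secretory samples, and its signal in maturation was at least 4.52-fold higher, so that its place against Junb (5.71-fold) is not fixed. Whether these genes had a part in the values of Per1 or Per2 was not tested.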

How the data were processed

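RNA from 4 secretory-stage and 4 maturation-stage samples was hybridized to RatRef-12 v1 arrays, on which many beads read each transcript. The authors deposited an intensity per probe and array (the mean over its beads, not background-corrected or normalized), with a detection p-value, a bead number and a bead standard error. The deposited table names neither summarising software nor genome build. Groups came from sample titles. The source label of maturation replicates 2 to 4 names the secretory stage, against their other labels.

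In R 4.3.3, neqc of limma 3.58.1 took negative controls from the detection p-values, corrected the background, applied quantile normalization and gave log2 values with an offset of 16. The 22523 probes were fitted unpaired with lmFit and eBayes, and calls required a Benjamini-Hochberg adjusted p below 0.05 and, where stated, 1.8-fold. A detection p below 0.05 counted as detected. For a lower bound of a fold, the lowest normalized signal of a detected probe on each array stood for the undetected stage. Exact two-sided tests used Python 3.11.15 and scipy 1.17.1. Current symbols came by gene ID from RefSeq (17430 probes matched), and probe chromosomes from the array annotation.

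Each rat gave both stages, so replicate numbers pair samples: over 11233 probes, deviations from the stage means correlated at 0.195, 0.129, 0.219 and 0.234 within rats and at -0.0833 to -0.0426 on average between rats. The clock genes, the other lists and the tests were chosen with earlier results of these data known. The genes named were all clock genes, those called in the wider list and 8 others of it, and the largest called change in each other list; exceptions are stated where they occur, and some items are not reported here. Alternatives were normexp on its own, quantile normalization of uncorrected signals, median scaling, cyclic loess, an offset of 50, a detection filter (4 arrays), the methods' t-test, the rat as a block, and each array or rat left out (for the comparison of stages, each rat was added after the data were seen). The microRNA data were not used here.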

Additional observations from a re-analysis of the deposited data

How the results depend on the processing

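Arntl was lower and Nr1d1 and Per2 were higher in maturation in every fit, with an adjusted p below 0.05 except for Arntl with median scaling (-0.16) and Per2 without rat 4. Each array left out gave -0.52 to -0.43 for Arntl, 0.59 to 0.75 for Nr1d1, 0.41 to 0.56 for Per2, 0.37 to 0.62 for Per1, 0.21 to 0.33 for Cry2, -0.079 to 0.020 for Cry1, -0.60 to -0.24 for Dbp, -0.22 to -0.026 for Clock, -0.24 to -0.10 for Per3 and -0.41 to -0.057 for Npas2; each rat left out gave 0.40 to 0.56 for Per2, 0.40 to 0.54 for Per1, 0.21 to 0.33 for Cry2 and -0.10 to 0.030 for Cry1. Tef, near the background, ran from -0.019 to 0.14 with each array left out and from 0.0099 to 0.15 with each rat. Tef turned sign without the secretory array of rat 4 (-0.019). Cry2 lost its adjusted p with normexp (0.23), no background correction (0.089), offset 50 (0.14) and the methods' t-test (0.27), and in each fit without 1 rat. Cry1 turned sign with cyclic loess (0.053) and median scaling (0.32), which also turned that of Ncor1 (0.052) and brought Per1 past 0.05 (0.81). With the replicate block, which pairs the samples of a rat, Per1 (0.47) and Dbp (-0.44) passed, 6 clock genes had an adjusted p below 0.05, and no other clock gene changed sides. Without rat 4, 2 clock genes had one. Without background correction 923 probes were called between the stages, 3 of the wider list and 76 between the rats; offset 50 gave 4 between the rats, and each rat left out gave 3 to 4. With median scaling 77.6% of called probes were higher in maturation, against 59.3%, and 1 clock gene was called. In all, 634 recomputed values stayed with the same sign on their side of the threshold (both thresholds for the wider list), within 1.5 times the count, or within a fixed margin for medians and shares. Of the others, 6 turned sign, 10 gained and 24 lost a threshold, and 12 counts, medians or shares moved. The block, the t-test and the detection filter leave each log2 fold change as it was, so that only its adjusted p could move there. The causes were not tested. No slide was named in the headers, so slide as a block was not run. The number of arrays limits the precision, and the signals of Clock, Per3 and Cry2 near the background limit what their values can show. The same holds for Dbp in the maturation sample of rat 1.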

Other observations

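Profiles over the 8 arrays were compared by the root mean square difference of log2 signals, after centring each probe on its own mean, among 9150 probes detected on all 8 arrays. The rule set for this comparison took clock genes called at both thresholds, of which there were none, so it was widened, after the values were seen, to those detected on every array that passed the adjusted p alone. Nearest to Arntl were Prpf4b, a kinase of pre-mRNA splicing (0.0505), and Tmem183a (0.0588). Nearest to Per2 were Zc3hav1, an antiviral zinc finger protein (0.0524), and Trip10 (0.0645). Nearest to Nr1d1 was Phlda1 (0.0584). These profiles are mostly the step between the stages, which many probes share.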
